A study of Homo sapiens with 31 samples.

Results

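Caco-2 cells grown in a gut-on-chip were set against Caco-2 cells grown on Transwell inserts, with neither culture having received a nanomaterial. The comparison used 8 of the 31 arrays of the study, chosen by their titles: 4 from the chip in ZnO-control medium and 4 from Transwell inserts in the same medium. The other arrays held cells exposed to ZnO or TiO2 nanomaterial, or to the TiO2-control medium. They entered the estimate of the spread, and the 4 chip and 4 Transwell arrays in TiO2-control medium served as a second, separate pair of groups. Caco-2 (HTB-37) is an established line from a human colorectal adenocarcinoma, so the model was 1 tumour-derived epithelial line without stromal, immune or microbial partners.

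All cultures were seeded at 75000 cells per cm2 at passages 29 to 45 and kept for 21 days in DMEM with 10% fetal bovine serum. Chip cells attached for 24 h without flow and then had medium passed over them at 100 µL/h, which gave a shear stress of about 0.002 dyne/cm2 on their apical side. Transwell cells grew without flow on inserts of 1.12 cm2 with pores of 0.4 µm, and their medium was renewed every few days. On the last day both systems received the dispersion solution of the ZnO experiment without metal. In the chip this solution filled the upper chamber in about 42 min and the flow was then halted, so that chip cells too were static during the 6 h before RNA was isolated. Transwell inserts received 500 µL apically. Membrane, medium renewal, volume and flow all differed between the systems and cannot be told apart here. The labels do not say whether the replicates came from separate cultures, and if they did not, the p-values measure only the spread between these RNA samples.

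When Caco-2 cells stay confluent they leave the cell cycle step by step, polarise, and build a brush border that carries disaccharidases, peptidases and nutrient transporters, much like the enterocytes of the small intestine. The transcription factors CDX2, HNF4A and the GATA family hold this programme in place. Epithelial cells also read their mechanical surroundings through actin tension, the SRF and YAP/TEAD regulators and integrin adhesion to laminin, and these pathways are active where cells spread, migrate or close a gap.

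The 8 arrays separated by culture system. Over the 11194 brighter genes the first principal component of the 8 arrays held 75.6% of the variance and placed the 4 chip arrays at 30.0 to 40.8 and the 4 Transwell arrays at -38.7 to -36.5. Chip arrays varied more than Transwell arrays, with a median SD per gene of 0.204 against 0.127 on the log2 scale. Of 11 measured epithelial markers of Caco-2, 3 were called higher, 4 lower and 4 were not called, with differences of -0.85 to 1.10. The adhesion molecule EPCAM averaged 11.62 in both systems (difference 0.00 ± 0.08, limma adjusted p = 0.983), whereas the brush border protein villin, VIL1, was lower in the chip. Of 14 measured stromal, endothelial and immune markers 3 were called higher and 2 lower, with differences of -1.63 to 1.28 and a median of -0.03. Their summed level on the linear scale was higher in the chip, at 2.62e+03 to 3.27e+03 against 1.88e+03 to 2.02e+03 on Transwell. Of the 14 markers 5 were below the array medians in both systems, among them the leukocyte gene PTPRC. The part of these markers in the results was not tested. Both systems held Caco-2 cells alone. Among these cells, fewer cells in a given state and less RNA per cell cannot be told apart in bulk RNA.

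Differences are given on the log2 scale, on which 1 is 2-fold, as chip minus Transwell with the standard error of the limma fit and 4 arrays in each group. A gene was called when its p-value, adjusted over all 22389 genes, was below 0.05. By that rule 6102 genes differed (27.3%): 2754 were higher in the chip (12.3%) and 3348 were lower (15%). At least 2-fold differences were found for 737 of the higher genes (3.29%) and 873 of the lower genes (3.9%), and at least 4-fold ones for 104 and 138. The median difference over all genes was -0.01. RMA makes the overall distribution of the arrays alike, so a shift shared by all genes would not be seen. A gene whose group mean lies below 3.269, the lowest of the medians of these 8 arrays over all probe sets, was not shown to be above background in that group, and its difference is at best a lower bound. Beside the genes marked below, this held on Transwell for the risers CYP1B1, HSPB8, KRT80, PDK4 and SAMD9L and in the chip for SLC30A10, which fell. Below 3.269 in both systems lay 7599 genes, of which 208 were called. Most gene lists held few such genes, so the shares over all genes are a low yardstick for the lists.

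The largest rises included genes of cell surface proteolysis, mechanical tension and oxidation of foreign compounds. PLAUR, the urokinase receptor that focuses plasminogen activation at the cell surface, read 9.08, 9.16, 8.45 and 9.44 in the chip, against 4.98, 5.16, 5.22 and 5.33 on Transwell. The groups lay far apart, and the difference was 3.86 ± 0.21 (limma adjusted p = 1.28e-13). ANKRD1, a target of YAP that is named for its ankyrin repeats, read 10.16, 9.24, 9.76 and 9.98 in the chip, against 6.02, 6.18, 5.98 and 6.02 on Transwell. Transwell arrays were nearly level for this gene, and the difference was 3.74 ± 0.25 (limma adjusted p = 3.79e-12). CYP1A1, the oxidase induced through the aryl hydrocarbon receptor, read 10.28, 10.92, 10.85 and 10.36 in the chip, against 7.50, 7.46, 7.30 and 7.23 on Transwell (difference 3.23 ± 0.17, limma adjusted p = 6.15e-14).

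UPK1B, a tetraspanin of the urothelial plaque, had the largest rise among the genes called without overlap between the groups, 4.01 ± 0.32 (limma adjusted p = 1.02e-10), but its Transwell mean of 3.20 was below the array medians. The reductase DHRS2 rose by 3.96 ± 0.36, the prostaglandin synthase PTGS2 by 3.36 ± 0.27 and the sulfhydryl oxidase QSOX1 by 3.19 ± 0.20. MMP9, a secreted gelatinase, read 6.40, 8.67, 4.89 and 6.33 in the chip, against 3.52, 3.41, 3.30 and 2.48 on Transwell. The chip arrays spread over almost 4 log2 units for this gene, yet each was above every Transwell array (difference 3.40 ± 0.48, limma adjusted p = 2.86e-06). The transcription factor ETS1, the proton pump subunit ATP6V1B1, the membrane protein EMP3 and BNIP5 completed the 12 largest rises, with differences of 3.23 to 3.37. On Transwell MMP9 and ETS1 were below the array medians.

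The largest falls included genes of nutrient absorption and of bile acid, urea and steroid metabolism. FABP2, the intestinal fatty acid binding protein and a marker of mature enterocytes, read 1.54, 1.65, 2.43 and 2.57 in the chip, against 7.02, 7.14, 7.09 and 6.96 on Transwell. Chip levels were below the array medians, so that the difference of -5.0 ± 0.24 (limma adjusted p = 9.4e-15) is at best a lower bound on the fall. CYP7A1, the first and limiting step in making bile acids from cholesterol, read 2.47, 2.12, 2.51 and 2.57 in the chip, against 7.40, 7.19, 7.41 and 6.94 on Transwell (difference -4.81 ± 0.17, limma adjusted p = 1.93e-17). It too was not shown above background in the chip. CPS1, which starts the urea cycle in mitochondria, read 4.78, 4.92, 6.06 and 4.41 in the chip, against 9.79, 9.65, 9.78 and 9.56 on Transwell, where it was among the brighter genes (difference -4.65 ± 0.42, limma adjusted p = 1.1e-09). The anion transporter SLC17A4, the vitamin B12 receptor cubilin (CUBN), the steroid-conjugating enzyme UGT2B17, the alcohol dehydrogenase ADH4, the adhesion receptor ADGRG7, and TM4SF20, C17orf78, MS4A10 and SLC23A3 made up the rest of the 12 largest falls, from -4.60 to -3.83. C17orf78 and UGT2B17 had chip means below the array medians, and UGT2B17 belongs to a family of closely alike genes whose probe sets may share signal.

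**Figure D1:**
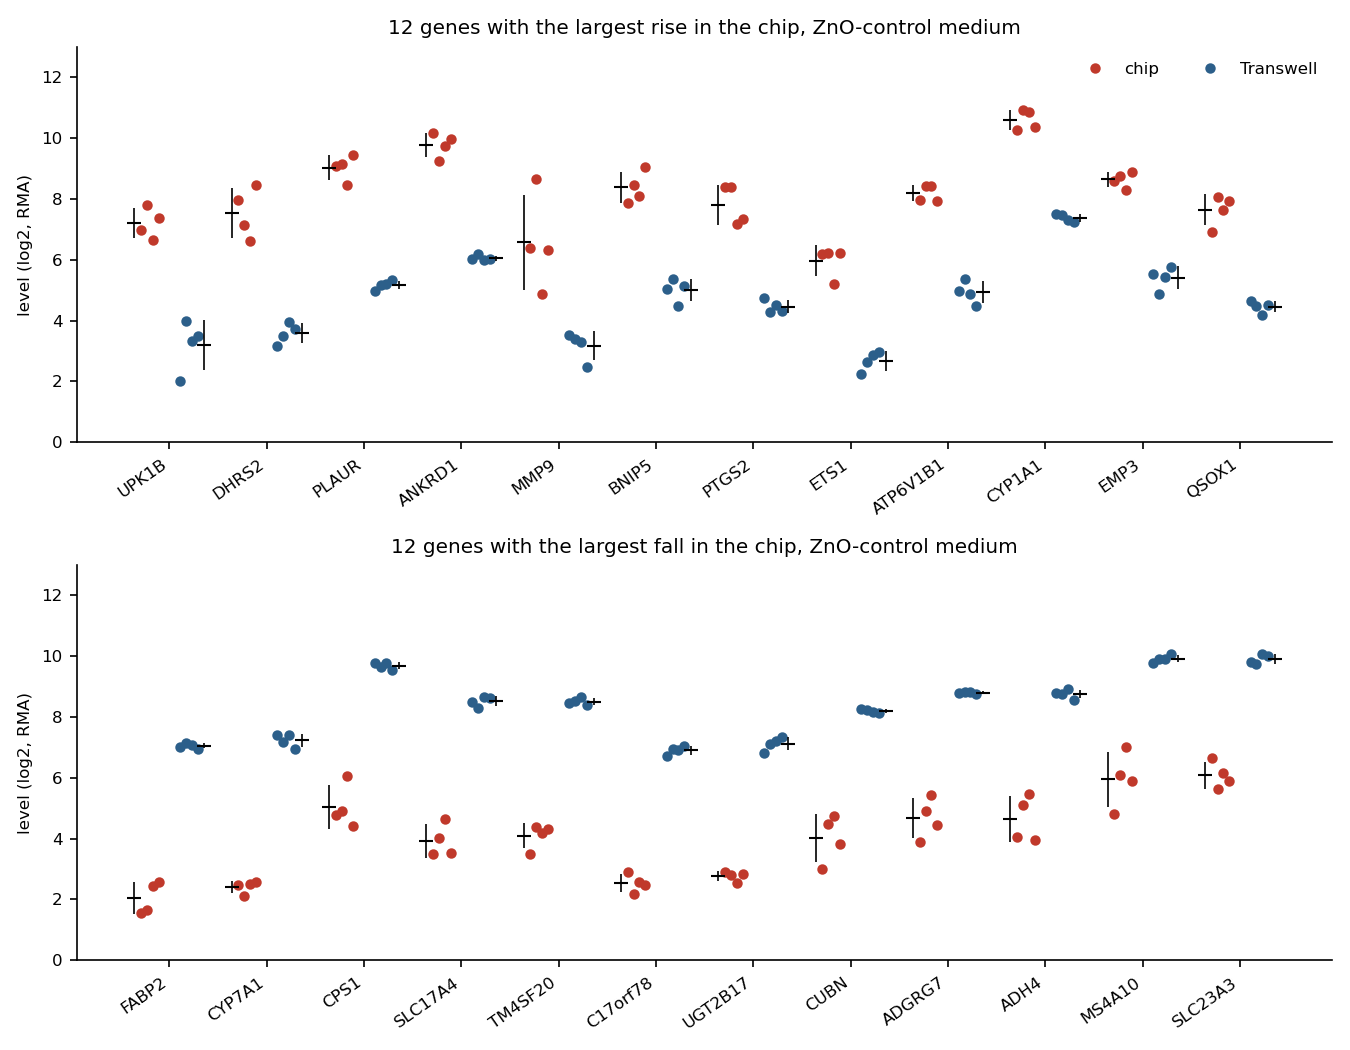
Level of the 12 genes with the largest rise (upper panel) and the 12 with the largest fall (lower panel) among genes called without overlap between the groups. Each point is 1 array on the log2 scale, red for the chip and blue for Transwell, both in ZnO-control medium; the black mark is the mean with its SD (n = 4). The chip points of MMP9 reach from 4.89 to 8.67, while the Transwell points of FABP2 stay between 6.96 and 7.14.

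The promoters of genes that lead these groups are shown because they hold recognition sequences of regulators known for these genes or pathways. The stretches are the 250 bases before the annotated start, from RefSeq on GRCh38.p14, written in the direction of the gene. Capitals mark matches, on either strand, to the AP-1 motif TGANTCA in PLAUR and MMP7, to the TEAD motif GGAATG in ANKRD1, to the core of the aryl hydrocarbon receptor motif, GCGTG, in CYP1A1, to the GATA motif AGATAA in FABP2 and to the CDX motif TTTATG in SI, the sucrase-isomaltase described with the brush border.
PLAUR, chr19:43670170-43670419, minus strand: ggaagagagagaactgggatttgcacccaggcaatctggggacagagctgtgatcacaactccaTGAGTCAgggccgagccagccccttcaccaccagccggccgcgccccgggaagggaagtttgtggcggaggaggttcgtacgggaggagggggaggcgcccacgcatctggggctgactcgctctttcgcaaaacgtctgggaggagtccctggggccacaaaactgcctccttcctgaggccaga
MMP7, chr11:102530748-102530997, minus strand: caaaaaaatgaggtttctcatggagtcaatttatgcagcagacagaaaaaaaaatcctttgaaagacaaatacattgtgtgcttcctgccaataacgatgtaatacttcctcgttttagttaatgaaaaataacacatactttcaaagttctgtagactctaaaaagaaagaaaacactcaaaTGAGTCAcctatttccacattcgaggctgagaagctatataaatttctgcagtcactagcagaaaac
ANKRD1, chr10:90921088-90921337, minus strand: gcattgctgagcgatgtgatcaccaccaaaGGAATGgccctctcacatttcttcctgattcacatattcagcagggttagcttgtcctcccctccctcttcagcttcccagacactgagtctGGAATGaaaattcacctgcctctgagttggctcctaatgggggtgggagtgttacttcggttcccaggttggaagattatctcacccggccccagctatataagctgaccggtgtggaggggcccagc
CYP1A1, chr15:74725529-74725778, minus strand: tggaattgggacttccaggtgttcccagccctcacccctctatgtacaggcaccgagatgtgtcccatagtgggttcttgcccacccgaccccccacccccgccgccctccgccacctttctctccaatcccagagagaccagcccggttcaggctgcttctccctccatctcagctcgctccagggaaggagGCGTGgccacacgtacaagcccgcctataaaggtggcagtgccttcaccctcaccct
FABP2, chr4:119322139-119322388, minus strand: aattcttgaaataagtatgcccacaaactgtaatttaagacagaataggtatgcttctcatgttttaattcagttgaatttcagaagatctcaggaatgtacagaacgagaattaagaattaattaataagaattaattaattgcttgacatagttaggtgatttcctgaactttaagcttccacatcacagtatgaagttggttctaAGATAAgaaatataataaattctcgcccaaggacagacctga
SI, chr3:165078497-165078746, minus strand: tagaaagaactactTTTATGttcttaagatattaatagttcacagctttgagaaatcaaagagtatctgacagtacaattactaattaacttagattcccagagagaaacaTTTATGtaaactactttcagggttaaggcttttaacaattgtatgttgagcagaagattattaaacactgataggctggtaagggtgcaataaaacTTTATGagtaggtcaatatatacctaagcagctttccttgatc

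PLAUR held its AP-1 match 186 bases before the start and MMP7 held one 67 bases before it. ANKRD1 held TEAD matches 220 and 128 bases before its start, CYP1A1 a receptor core at 57, FABP2 a GATA match at 42 and SI CDX matches at 236, 139 and 43. Other motifs searched matched as well: PLAUR held a receptor core, MMP7 a CDX match, ANKRD1 an AP-1 and a GATA match, and FABP2 a TEAD match. MMP7 and SI also held a match to the short HNF1 motif GTTAAT. Such short motifs are common. Among 15486 promoters of measured genes the AP-1 motif was found in 5.37%, the TEAD motif in 10.2%, the receptor core in 38.5%, the GATA motif in 7.15% and the CDX motif in 7.56%. Among the 534 promoters of genes called at least 2-fold higher, 5.81% held the AP-1 motif, 9.74% the TEAD motif, 34.8% the receptor core, 6.37% the GATA motif and 4.68% the CDX motif. Among the 662 promoters of genes called at least 2-fold lower the shares were 5.14% for AP-1, 10.6% for TEAD, 37.5% for the receptor core, 10.1% for GATA and 8.46% for CDX. The TEAD motif and the receptor core were thus less frequent in promoters of the higher genes than in those of the lower genes. The short HNF4 motif AGTCCA was found in 6.55% of promoters of the higher genes, 11.6% of those of the lower genes and 9.02% of those of measured genes. For the HNF1 motif these shares were 4.49%, 7.4% and 4.92%. Those shares are descriptions with no test. A match is not a bound site, and its absence says only that these letters are not in the window.

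Sugar digestion and uptake were lower in the chip almost throughout. Of 13 measured disaccharidases and sugar transporters 11 fell and 2 rose, with a median difference of -1.84. SI, which splits sucrose and isomaltose in the brush border, read 6.54, 7.60, 8.81 and 6.94 in the chip, against 11.26, 11.30, 11.38 and 11.27 on Transwell. Its chip arrays were uneven, and all were over 2 log2 units below the lowest Transwell array (difference -3.83 ± 0.46, limma adjusted p = 1.95e-07). Lactase (LCT, -2.06 ± 0.28) and maltase-glucoamylase (MGAM, -1.99 ± 0.24) fell, as did the sodium-glucose cotransporter SLC5A1 (-1.86 ± 0.14), the basolateral glucose exit SLC2A2 (-1.81 ± 0.22) and the fructose carrier SLC2A5 (-2.42 ± 0.21). The 2 members that rose were SLC2A1 (0.42 ± 0.11) and SLC2A3 (1.66 ± 0.24), the glucose carriers of most other cells.

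Fat absorption fell in part. Of 25 measured genes 11 fell, 1 rose and 13 were not called, with a median of -0.42. MTTP, which loads lipid onto apolipoprotein B, read 5.65, 5.85, 7.66 and 5.78 in the chip, against 9.44, 9.52, 9.82 and 9.87 on Transwell. Chip replicate 3 was the highest of its group and still below every Transwell array (difference -3.42 ± 0.37, limma adjusted p = 3.66e-08). APOA4 (-1.85 ± 0.42), APOA1 (-0.91 ± 0.19), the cholesterol esterifying enzyme SOAT2 (-1.24 ± 0.20) and APOB (-0.74 ± 0.19) fell as well. NPC1L1, the cholesterol uptake protein, rose by 1.05 ± 0.16. FABP1 differed by -0.38 ± 0.15 (limma adjusted p = 0.0704).

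Of 15 measured brush border peptidases and phosphatases 9 fell and 0 rose, with a median of -0.78. The neutral ceramidase ASAH2, below the array medians in the chip, fell by 3.55 ± 0.28 on the log2 scale, the aminopeptidase XPNPEP2 by 3.36 ± 0.48 and aminopeptidase N (ANPEP) by 1.64 ± 0.27. Structural proteins of the microvillus changed less. Of 19 measured, 9 fell and 1 rose, with a median of -0.41. Villin (VIL1) read 10.03, 10.40, 10.43 and 10.09 in the chip, against 11.02, 11.07, 11.13 and 11.15 on Transwell (difference -0.85 ± 0.10, limma adjusted p = 2.72e-07), a clean separation of the groups at a high level. The motor MYO1A fell by 0.73 ± 0.14, the bundling protein ESPN by 1.01 ± 0.27 and the junctional scaffold ANKS4B by 1.18 ± 0.13. Ezrin, EZR, differed by 0.14 ± 0.08 (limma adjusted p = 0.22).

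Among regulators of the intestinal programme more fell than rose. Of 20 measured transcription factors 9 fell and 2 rose, with a median of -0.35. CDX2, the master regulator of intestinal identity, read 7.85, 7.35, 8.0 and 8.13 in the chip, against 8.18, 8.32, 8.26 and 8.21 on Transwell. The fall was small and just past the threshold (-0.41 ± 0.14, limma adjusted p = 0.0293), and without chip replicate 2 it was -0.25 and no longer called. The call was also lost without Transwell replicate 2 or 3, in a fit of the 8 arrays alone and with a common median of the brighter genes. NR5A2, which drives CYP7A1 in liver, fell by 2.14 ± 0.19, MAF by 2.04 ± 0.27, GATA4 by 1.58 ± 0.21, FOXA1 by 1.53 ± 0.15 and PRDM1 by 1.37 ± 0.15. The epithelial factors ELF3 (1.38 ± 0.17) and KLF4 (0.57 ± 0.15) rose. HNF4A was not analysed here.

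Among 24 genes of ion, water and acid-base transport 11 fell and 6 rose. The calcium buffer S100G fell by 3.61 ± 0.23, with a chip mean below the array medians, and the chloride-bicarbonate exchanger SLC26A3, the water channel AQP10 and the chloride channel CFTR fell by 2.19 ± 0.28, 2.00 ± 0.27 and 1.05 ± 0.17. The sodium-proton exchanger SLC9A2 rose by 1.39 ± 0.18. Of 17 peptide and amino acid transporters 5 fell and 4 rose: the 2 chains of the cystine carrier, SLC7A9 (-2.75 ± 0.28) and SLC3A1 (-2.08 ± 0.25), fell together, and the peptide carrier SLC15A1 differed by -0.17 ± 0.20 (limma adjusted p = 0.615).

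Bile acid genes and those of hepatic-type metabolism were more often lower than higher. Of 15 genes of bile acid synthesis and handling 6 fell and 0 rose, among them the ileal uptake carrier SLC10A2 (-2.18 ± 0.27) and the sulfotransferase SULT2A1 (-3.44 ± 0.24). Of 14 gluconeogenic and urea cycle genes 9 fell and 1 rose, with a median of -0.61. G6PC1, the last step of glucose release, read 2.48, 2.56, 3.73 and 3.41 in the chip, against 6.72, 6.61, 6.87 and 7.05 on Transwell (difference -3.76 ± 0.33, limma adjusted p = 9.53e-10), with a chip mean below the array medians. FBP1, an earlier step of the same pathway, fell by 3.31 ± 0.37 and NAGS, which makes the activator of CPS1, by 1.86 ± 0.13. PCK1, the entry step of gluconeogenesis, went the other way and rose by 2.04 ± 0.36 (limma adjusted p = 5.79e-05).

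Drug metabolism moved in both directions. Of 21 conjugating enzymes 8 fell and 3 rose: UGT2A3 (-1.67 ± 0.20) and the glutathione transferase GSTA1 (-3.04 ± 0.32) fell, and SULT1C2 rose by 2.01 ± 0.20. Of 23 oxidases and reductases 9 fell, with MAOB at -3.22 ± 0.28, and 6 rose. CYP3A5 read 7.65, 7.61, 7.91 and 8.56 in the chip, against 5.22, 5.0, 5.18 and 5.45 on Transwell (difference 2.72 ± 0.20, limma adjusted p = 2.46e-11). Of 9 measured aryl hydrocarbon receptor genes 5 rose and 0 fell, with CYP1B1 (1.04 ± 0.20), TIPARP (1.17 ± 0.14), LMCD1 (1.94 ± 0.17) and the receptor AHR itself (0.59 ± 0.10) beside CYP1A1. NQO1 differed by 0.30 ± 0.13 (limma adjusted p = 0.0883). Among efflux pumps ABCB1 fell by 1.38 ± 0.15 on the log2 scale, while ABCC1 (1.59 ± 0.14) and ABCG2 (1.01 ± 0.12) rose.

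**Figure D2:**
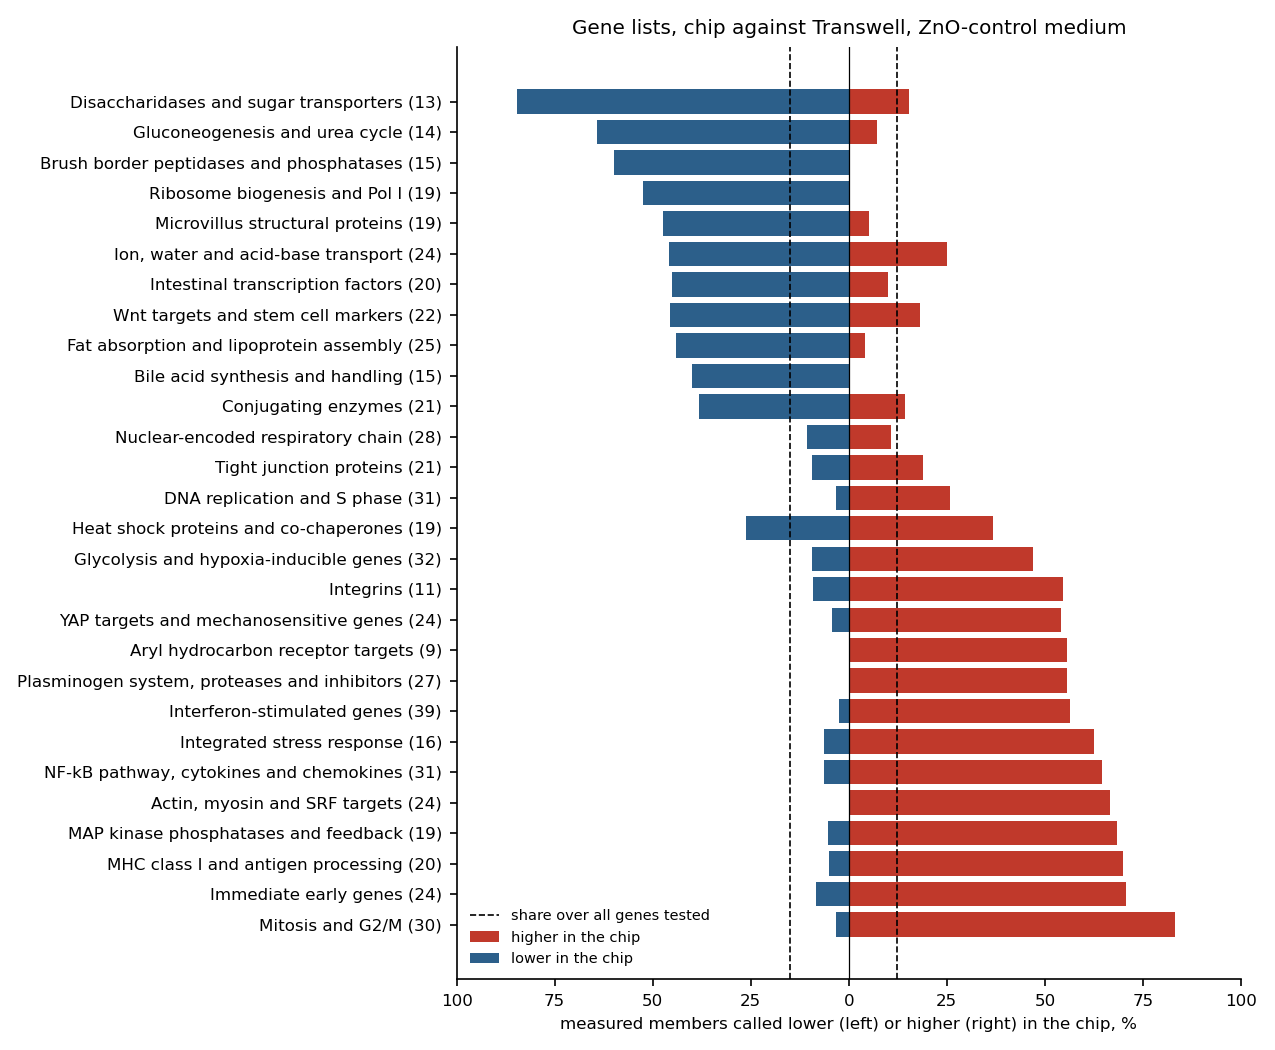
Share of the measured members (number in brackets) of 28 gene lists called higher (red, right) or lower (blue, left) in the chip than on Transwell in ZnO-control medium, in percent. The dashed lines mark the shares over all genes tested, 12.3% higher and 15% lower. These shares include 7599 genes below the array medians in both systems, of which 208 were called. The disaccharidases and sugar transporters reach furthest to the left, with 84.6% lower, followed by gluconeogenesis and the urea cycle with 64.3%. The mitosis list reaches furthest to the right, with 83.3% higher.

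Targets of YAP and of actin tension more often rose than fell. Of 24 measured YAP and mechanosensitive genes 13 rose and 1 fell, with a median of 0.52. CCN1, a secreted matrix protein and early YAP target, read 7.24, 9.06, 7.42 and 8.15 in the chip, against 5.43, 5.40, 5.08 and 5.44 on Transwell (difference 2.63 ± 0.27, limma adjusted p = 1.33e-08). CCN2, its close relative, rose less, by 0.87 ± 0.21. The growth factor TGFB2 rose by 2.82 ± 0.30 and the natriuretic peptide NPPB by 2.53 ± 0.19. AMOTL2, which restrains YAP in turn, rose by 0.95 ± 0.12.

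Of 24 actin, myosin and SRF target genes 16 rose and 0 fell, with a median of 0.61. FHL2, a LIM protein of actin filaments and the nucleus, read 7.05, 7.36, 7.21 and 7.79 in the chip, against 4.99, 5.20, 4.74 and 4.86 on Transwell (difference 2.41 ± 0.14, limma adjusted p = 1.72e-13). Transgelin (TAGLN) rose by 1.72 ± 0.18, zyxin (ZYX) by 1.43 ± 0.13 and vinculin (VCL) by 1.19 ± 0.11. ACTB itself differed by 0.53 ± 0.20 (limma adjusted p = 0.0512).

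Genes of surface proteases, adhesion receptors and matrix were also more often higher than lower. Of 27 measured members of the plasminogen system, proteases and inhibitors 15 rose and 0 fell. MMP7, the matrilysin of epithelial cells, read 6.80, 5.71, 5.83 and 6.81 in the chip, against 3.22, 3.07, 3.27 and 3.43 on Transwell (difference 3.04 ± 0.33, limma adjusted p = 3.42e-08), with a Transwell mean below the array medians. MMP24 rose by 2.77 ± 0.21, urokinase (PLAU) by 1.60 ± 0.24 and the inhibitor TIMP1 by 1.08 ± 0.23. Of 11 integrins 6 rose and 1 fell. ITGB4, the laminin receptor chain of hemidesmosomes, rose by 1.99 ± 0.14 and ITGA2 by 1.19 ± 0.21, and ITGB3 fell by 0.90 ± 0.25. Of 19 laminin and basement membrane genes 9 rose and 2 fell, with LAMA5 at 1.64 ± 0.17 and perlecan (HSPG2) at 1.29 ± 0.18. Annexin A1, ANXA1, a membrane repair and anti-inflammatory protein, rose by 3.13 ± 0.18, and among EGF receptor genes 4 of 12 rose, including HBEGF (2.12 ± 0.18), EREG (1.61 ± 0.15) and EGFR (1.09 ± 0.10).

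Of 19 mesenchymal transition markers 7 rose and 0 fell. SNAI1, a repressor of epithelial genes, read 8.12, 8.51, 8.24 and 8.34 in the chip, against 5.48, 5.33, 5.44 and 5.36 on Transwell. Replicates were tight in both systems and the difference was 2.90 ± 0.13 (limma adjusted p = 2e-15). Vimentin (VIM) rose by 1.19 ± 0.16 and SPARC by 1.91 ± 0.23. The regulator ZEB1 was below the array medians in both systems (difference -0.27 ± 0.15, limma adjusted p = 0.217). E-cadherin, CDH1, a target that SNAI1 is known to repress, averaged 12.18 in the chip and 12.04 on Transwell (difference 0.14 ± 0.08, limma adjusted p = 0.202). Of 22 desmosome, cadherin and keratin genes 10 rose and 2 fell, with KRT23 (1.88 ± 0.48), KRT80 (1.54 ± 0.35) and P-cadherin, CDH3 (1.11 ± 0.12), among the risers.

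Many inflammatory and interferon genes were higher in the chip. Of 31 NF-kB pathway, cytokine and chemokine genes 20 rose and 2 fell, with a median of 0.77. ICAM1, an adhesion molecule for leukocytes, read 9.74, 9.70, 9.19 and 9.99 in the chip, against 7.60, 7.38, 7.52 and 7.62 on Transwell (difference 2.13 ± 0.18, limma adjusted p = 4.55e-10). The pathway's own inhibitors NFKBIA (1.96 ± 0.18) and TNFAIP3 (1.80 ± 0.17) and the subunits NFKB2 (2.16 ± 0.17) and RELB (1.67 ± 0.18) rose, and NFKB1 fell by 0.70 ± 0.13 on the log2 scale. TNF read 5.44, 6.93, 4.46 and 6.13 in the chip, against 4.00, 4.01, 4.11 and 3.81 on Transwell (difference 1.75 ± 0.36, limma adjusted p = 0.000407). CXCL8, the classical neutrophil chemokine, was below the array medians in both systems (0.29 ± 0.33, limma adjusted p = 0.601), and IL1B fell by 0.73 ± 0.18.

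Of 39 interferon-stimulated genes 22 rose and 1 fell, with a median of 0.75. IFIT2, which binds viral RNA, read 6.53, 5.56, 4.41 and 6.18 in the chip, against 3.10, 2.84, 2.98 and 2.65 on Transwell (difference 2.78 ± 0.36, limma adjusted p = 6.87e-07). Its Transwell level was below the array medians. IRF1 rose by 2.40 ± 0.22, IFIT3 by 2.21 ± 0.31, IFITM1 by 2.05 ± 0.20 and ISG15 by 1.36 ± 0.23. The antiviral GTPase MX1 was below the array medians in both systems (-0.03 ± 0.23, limma adjusted p = 0.949), and PARP9 fell by 0.68 ± 0.15. Of 20 MHC class I and antigen processing genes 14 rose and 1 fell. The peptide pump TAP1 rose by 2.16 ± 0.16, B2M by 0.85 ± 0.13 and HLA-E by 0.68 ± 0.13, while the trimming peptidase ERAP1 fell by 1.20 ± 0.12. HLA genes share sequence, so the values of single members are uncertain.

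Many genes that growth factors or stress switch on quickly were higher in the chip. Of 24 measured immediate early genes 17 rose and 2 fell, with a median of 1.11. EGR1, a zinc finger factor of this class, read 9.86, 9.52, 9.52 and 9.73 in the chip, against 7.65, 7.34, 7.66 and 7.48 on Transwell (difference 2.12 ± 0.17, limma adjusted p = 7.98e-11). FOS rose by 1.95 ± 0.18, FOSL1 by 1.89 ± 0.27, JUNB by 1.96 ± 0.14, NR4A1 by 2.68 ± 0.21 and the RNA decay factor ZFP36 by 2.05 ± 0.16. SGK1, a kinase that responds to salt and osmotic load, fell by 0.91 ± 0.14. Of 19 MAP kinase phosphatases and feedback genes 13 rose and 1 fell, with DUSP10 (2.63 ± 0.29) and DUSP5 (2.52 ± 0.16) in front and DUSP16 down by 1.22 ± 0.13.

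Of 16 genes of the integrated stress response 10 rose and 1 fell. GDF15, a secreted stress cytokine, read 9.75, 10.06, 9.70 and 9.98 in the chip, against 6.99, 6.89, 7.06 and 7.10 on Transwell (difference 2.86 ± 0.18, limma adjusted p = 1.56e-12). ATF3 rose by 2.06 ± 0.21, PPP1R15A by 1.83 ± 0.16 and DDIT3 by 1.80 ± 0.26. Endoplasmic reticulum chaperones did not follow: of 21 measured, 3 rose and 2 fell, the median was 0.05, and HSPA5, their main member, differed by -0.25 ± 0.10 (limma adjusted p = 0.0715).

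Heat shock genes split. Of 19 measured, 7 rose and 5 fell, with a median of 0.43. The small chaperones CRYAB (2.40 ± 0.44), HSPB8 (1.82 ± 0.19) and HSPB1 (1.40 ± 0.16) rose. HSPH1 (-0.77 ± 0.15), DNAJA1 (-1.02 ± 0.17) and STIP1 (-0.57 ± 0.12), partners of the large HSP70 and HSP90 machines, fell. CRYAB read 5.36, 7.41, 4.14 and 6.38 in the chip, against 3.48, 3.59, 3.15 and 3.48 on Transwell, and HSPB1 read 10.85, 11.18, 10.16 and 11.04 in the chip, against 9.44, 9.35, 9.47 and 9.36 on Transwell. In both, chip replicates 2 and 4 were the highest and replicate 3 the lowest. Of 10 metallothioneins, the small zinc and copper binding proteins, 5 rose and 0 fell, with a median of 1.07. MT1G read 8.39, 7.86, 7.26 and 9.71 in the chip, against 5.74, 5.91, 6.37 and 5.86 on Transwell (difference 2.34 ± 0.43, limma adjusted p = 9.24e-05). Metallothionein genes are nearly alike in sequence, and probes can bind several of them.

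Such unevenness among chip arrays was seen for whole lists. The mean level of the interferon-stimulated genes was 5.37, 5.39, 4.69 and 5.51 in the chip, against 4.47, 4.44, 4.48 and 4.49 on Transwell. Chip replicate 3 thus lay nearer to Transwell than to its own group. The heat shock list averaged 7.15, 7.99, 6.88 and 7.71 in the chip, against 7.19, 7.17, 7.15 and 7.17 on Transwell, with chip values on both sides of a level Transwell group. Metallothioneins averaged 6.70, 6.30, 6.29 and 7.74 in the chip, against 5.81, 5.81, 5.82 and 5.47 on Transwell. The sugar list, by contrast, averaged 5.65 to 6.25 in the chip and 7.30 to 7.56 on Transwell, and the mitosis list 8.13 to 8.34 in the chip and 7.41 to 7.65 on Transwell, so that for both the gap between the systems exceeded the range within either.

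**Figure D3:**
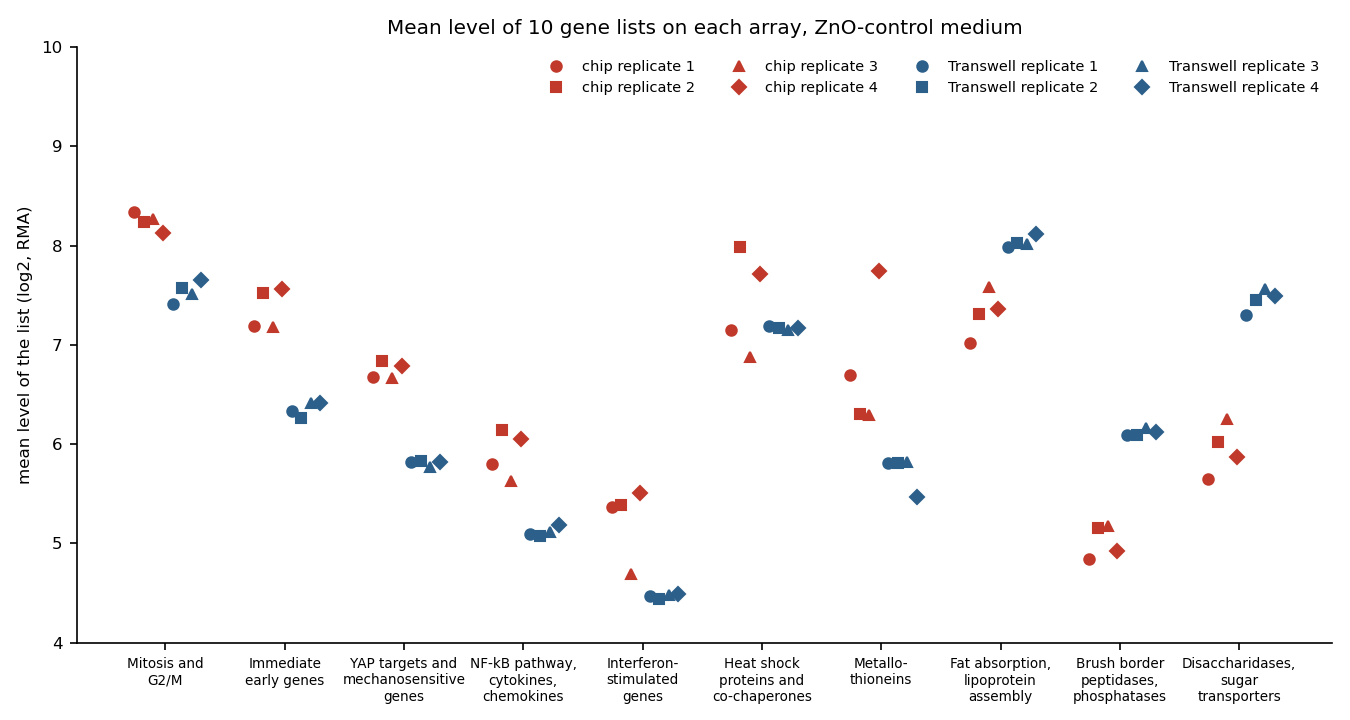
Mean log2 level of 10 gene lists on each of the 8 arrays, red for the chip and blue for Transwell, with 1 symbol per replicate. Same-numbered replicates are not known to be paired. Chip replicate 3 is at 4.69 for the interferon-stimulated genes while the other chip arrays lie between 5.37 and 5.51.

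Mitotic genes were mostly higher in the chip. Of 30 measured mitosis and G2/M genes 25 rose and 1 fell, with a median of 0.75. BUB1, a checkpoint kinase of the mitotic spindle, read 8.79, 8.46, 8.40 and 8.25 in the chip, against 7.01, 7.46, 7.30 and 7.46 on Transwell (difference 1.17 ± 0.15, limma adjusted p = 8.67e-07). The securin PTTG1 rose by 1.68 ± 0.28, CDC20 by 1.10 ± 0.16, CCNB2 by 0.92 ± 0.13 and CDK1 by 0.82 ± 0.16. MKI67, the common proliferation marker, differed by 0.36 ± 0.19 (limma adjusted p = 0.179) and CCNB1 by 0.29 ± 0.17 (limma adjusted p = 0.23). The S phase list moved less. Of 31 measured replication genes 8 rose, 1 fell and 22 were not called, with a median of 0.19. The licensing factor CDT1 rose by 1.07 ± 0.16, RFC4, of the clamp loader, by 1.31 ± 0.17 and thymidine kinase (TK1) by 0.52 ± 0.17, FEN1 fell by 0.65 ± 0.19, and PCNA differed by -0.19 ± 0.20 (limma adjusted p = 0.566). The call of TK1 was lost without chip replicate 4, Transwell replicate 1 or Transwell replicate 2, with values of 0.47 to 0.50.

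Among stem cell and growth genes more fell than rose. Of 22 Wnt targets and stem cell markers 10 fell and 4 rose, with a median of -0.28. AXIN2, a feedback target of the pathway, read 6.27, 5.67, 6.21 and 5.87 in the chip, against 7.32, 7.22, 7.37 and 7.22 on Transwell (difference -1.28 ± 0.22, limma adjusted p = 3.39e-05). The stem cell factor ASCL2 (-1.28 ± 0.20) and SOX9 (-1.07 ± 0.15) fell, and CD44 rose by 0.95 ± 0.23, though with the mean of its probe sets it was at 0.38 and not called. Of 19 ribosome biogenesis genes 10 fell and 0 rose, with RRS1 at -1.45 ± 0.27 and the RNA polymerase I subunit POLR1B at -1.28 ± 0.19. Of 32 glycolysis and hypoxia-inducible genes 15 rose and 3 fell: hexokinase 1 (HK1) rose by 1.94 ± 0.18, enolase 2 (ENO2) by 2.20 ± 0.22 and adrenomedullin (ADM) by 2.02 ± 0.20, LOX fell by 2.04 ± 0.35, and LDHA differed by 0.05 ± 0.11 (limma adjusted p = 0.826).

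Of 28 nuclear-encoded respiratory chain genes 3 rose and 3 fell, with a median of -0.01. Among 21 tight junction genes 4 rose and 2 fell, with CLDN1 at -0.64 ± 0.14 and CGNL1 at 1.11 ± 0.16. Fatty acid synthesis had 1 riser and 2 fallers of 12 genes. Of 21 p53 target genes 7 rose (33.3%) and 5 fell (23.8%), with a median of -0.11, and CDKN1A differed by 0.36 ± 0.14 (limma adjusted p = 0.0564). Over all genes, those below the array medians included, 12.3% rose and 15% fell. In mucus genes (24 measured) 8 rose (33.3%) and 2 fell (8.33%): the secreted lectin ZG16 fell by 2.69 ± 0.35, the sialyltransferase ST6GALNAC1 rose by 1.96 ± 0.18 from a Transwell mean below the array medians, and the main gel-forming mucin of the colon, MUC2, differed by 0.24 ± 0.16 (limma adjusted p = 0.328).

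The remaining lists follow with their counts, and some of them were as one-sided as lists described above. Over all genes, those below the array medians included, 12.3% were higher and 15% lower. Of 23 liver-type secreted proteins 10 fell (43.5%) and 3 rose (13%). Fibrinogen alpha (FGA, -1.20 ± 0.16) and SERPINA1 (-0.54 ± 0.13) fell, and the acute phase inhibitor SERPINA3 rose by 1.12 ± 0.24. ALB differed by -0.25 ± 0.36 (limma adjusted p = 0.706). Of 24 zinc transporters and their regulator 7 fell, with SLC30A10 at -1.68 ± 0.26, and 2 rose, including the zinc exporter SLC30A1 (0.72 ± 0.17). Of 20 iron and haem genes 4 rose and 4 fell. Among 28 NRF2 targets 11 rose (39.3%) and 5 fell (17.9%), with SRXN1 at 0.59 ± 0.16. HMOX1 differed by -0.19 ± 0.17 (limma adjusted p = 0.504). Peroxide and superoxide genes had 5 rising and 3 falling of 17, with the thioredoxin inhibitor TXNIP at 1.41 ± 0.12.

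In lysosome and autophagy genes 10 of 24 rose (41.7%) and 5 fell (20.8%), with the autophagy receptor SQSTM1 at 0.93 ± 0.10. Of 23 apoptosis genes 7 rose and 4 fell, with the death receptor TNFRSF10B at 1.24 ± 0.14 and FAS at -0.20 ± 0.19 (limma adjusted p = 0.516). Of 14 cell cycle inhibitors 7 rose (50%) and 3 fell (21.4%), with CDKN1C at 0.98 ± 0.19. Replication-dependent histones had 5 rising of 18 (27.8%) and 0 falling, led by H2BC21 (2.26 ± 0.33), and histone genes share sequence. Of 14 purine synthesis genes 5 rose (35.7%) and 1 fell (7.14%), with IMPDH1 at 1.17 ± 0.11. Of 23 fatty acid oxidation genes 8 fell and 5 rose, PDK4, which spares glucose, by 2.12 ± 0.31. Of 17 cholesterol synthesis genes 6 fell and 4 rose, and of 15 serine and one-carbon enzymes 4 fell and 5 rose. Of 16 S100 proteins 5 rose (31.2%) and 1 fell (6.25%), with S100P at 1.39 ± 0.18. Krüppel-like factors had 5 of 13 rising (38.5%) and 0 falling, KLF6 by 0.67 ± 0.13. Secretory lineage markers had 4 of 18 rising (22.2%) and 0 falling, REG4 by 1.82 ± 0.26.

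Of 1018 measured microRNA genes 39 were called higher (3.83%) and 18 lower (1.77%), where over all genes 12.3% were higher and 15% lower. Only 352 of the 1018 had a group mean at or above the lowest array median in either system. The rest were not shown to be above background, so the low shares do not tell how many microRNA genes changed. The array reads the gene or its precursor, and for those inside a longer transcript also that transcript, not the mature microRNA. The mature strands below, from RefSeq on GRCh38.p14, are of genes named after their values had been seen. They are shown with the seed (bases 2 to 8) in capitals because it groups them.
hsa-miR-21-5p: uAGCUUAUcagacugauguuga
hsa-miR-146b-5p: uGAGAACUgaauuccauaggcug
hsa-miR-146a-5p: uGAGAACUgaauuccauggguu
hsa-miR-26b-5p: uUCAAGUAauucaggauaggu
hsa-miR-26a-5p: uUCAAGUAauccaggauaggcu
hsa-miR-30e-5p: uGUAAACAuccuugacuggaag
hsa-miR-29c-3p: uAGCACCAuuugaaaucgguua

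MIR21, whose microRNA is abundant in growing and inflamed epithelium, read 8.33, 5.92, 7.85 and 7.95 in the chip, against 4.28, 4.93, 4.83 and 4.70 on Transwell (difference 2.83 ± 0.43, limma adjusted p = 6.28e-06). Every chip array was above every Transwell array, replicate 2 by the least. The gene lies at the end of VMP1, whose transcripts its probe set may also read. MIR146B (1.18 ± 0.29) and MIR146A (0.84 ± 0.30), which share the seed GAGAACU and are known feedback inhibitors of NF-kB signalling, both rose, from Transwell levels below the array medians. The call of MIR146A was lost without chip replicate 1 or 4 and without Transwell replicate 1, among others, with values of 0.52 to 0.89. MIR26B (0.49 ± 0.14) and MIR26A1 (0.44 ± 0.15) share the seed UCAAGUA and also rose, the second at a level below the medians in both systems. MIR30E (-0.83 ± 0.25) and MIR29C (-1.16 ± 0.39), whose microRNAs are linked to differentiation and low matrix production, fell. The calls of MIR26A1 and MIR29C were each lost in 4 of the 8 fits that left out 1 array, with values of 0.39 to 0.43 and -1.09 to -0.94. In TiO2-control medium MIR21 (2.03) and MIR30E (-1.24) were called as well. MIR146B (-0.19), MIR146A (0.65), MIR26B (0.06), MIR26A1 (-0.15) and MIR29C (-0.97) were not called there. None of these genes passed a test of the difference between the media.

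The chip-minus-Transwell difference was then compared with that in TiO2-control medium, which rested on other arrays. Medium and experimental set cannot be told apart in this comparison. In TiO2-control medium 2110 genes were called higher (9.42%) and 3017 lower (13.5%). Of the genes higher in ZnO-control medium 50.2% were also called higher in TiO2-control medium, which were 65.5% of those called there, and for lower genes the shares were 58.5% and 64.9%. PLAUR, for example, differed by 3.86 ± 0.21 in ZnO-control and 3.93 ± 0.21 in TiO2-control medium, and CYP7A1 by -4.81 ± 0.17 and -4.83 ± 0.17. The difference between the media passed the test for 613 genes (2.74%), 378 with a higher value in ZnO-control medium (1.69%) and 235 with a lower one (1.05%). Without Transwell replicate 1 these counts were 189 and 120, without Transwell replicate 2 they were 237 and 142, and without Transwell replicate 3 they were 267 and 155. All 378 had a lower ZnO-control than TiO2-control mean on Transwell, and 341 had a higher one in the chip. The tested difference is built from these parts, so selecting genes by it favours such signs, and they are not separate evidence.

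**Figure D4:**
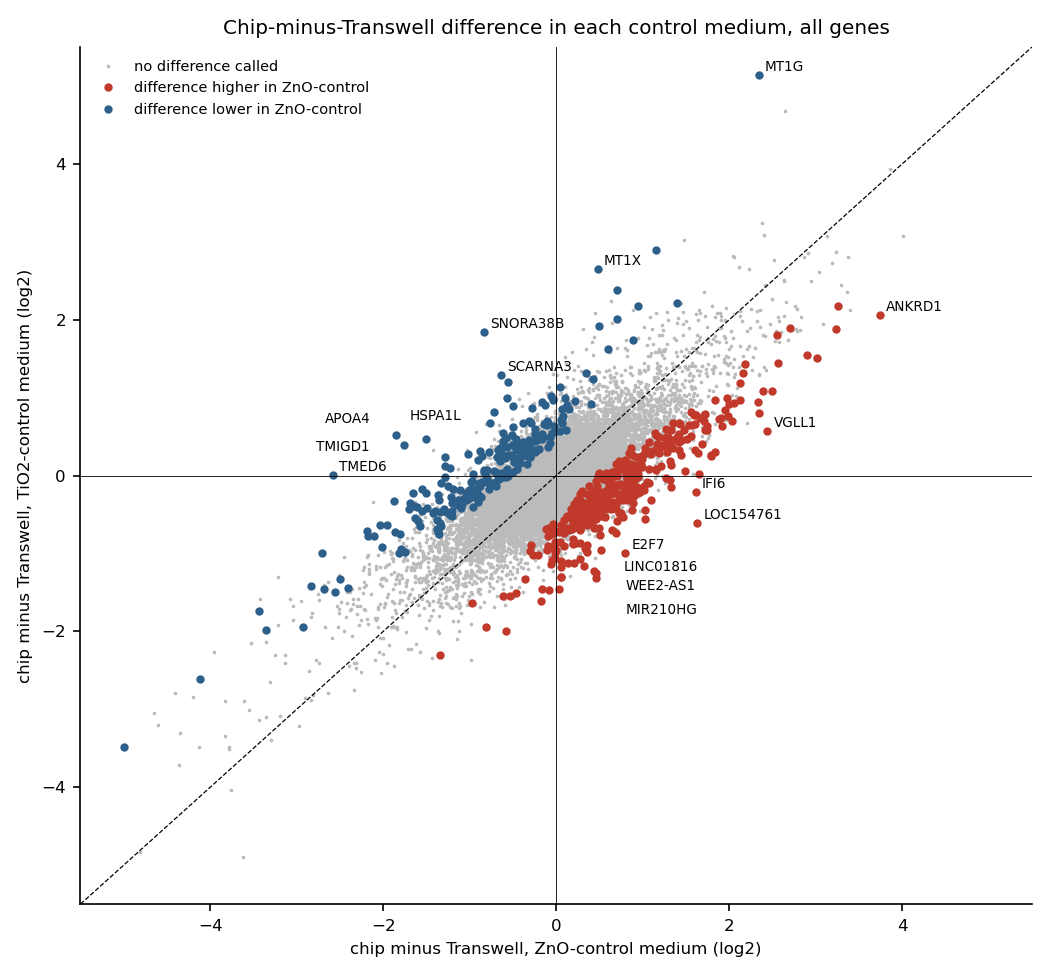
Chip-minus-Transwell difference of each gene in ZnO-control medium (horizontal, log2) and in TiO2-control medium (vertical, log2), with equality dashed. Coloured points are the 613 genes whose difference between media passed the test, red for higher and blue for lower in ZnO-control medium, and the 16 with the largest differences between media are named. MT1G stands at 2.34 and 5.14, TMED6 at -2.58 and 0.01.

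The cell cycle lists differed between the media. In S phase 11 of 31 genes had a higher difference in ZnO-control medium and 0 a lower one: the list had a median of 0.19 in ZnO-control medium, with 8 rising and 1 falling, and of -0.56 in TiO2-control medium, with 1 rising and 21 falling. TK1 rose by 0.52 ± 0.17 in ZnO-control medium and was at -0.52 ± 0.17 in TiO2-control medium (difference between media 1.04 ± 0.25, limma adjusted p = 0.0206). Its call in ZnO-control medium was the one lost in 3 of the 8 fits without 1 array. The atypical E2F repressor E2F7 was at 0.80 ± 0.17 and -0.99 ± 0.17, a difference of 1.79 ± 0.24 (limma adjusted p = 6.85e-05). The mitosis list had a median above 0 in both, 0.75 in ZnO-control and 0.25 in TiO2-control medium. Of its genes 25 rose and 1 fell in ZnO-control medium, and 3 rose and 0 fell in TiO2-control medium. The test of the difference was passed by 5, with PLK1 at 0.89 and BUB1 at 0.80. For interferon-stimulated genes, where 22 rose in ZnO-control and 10 in TiO2-control medium, IFI6 (1.82 ± 0.47, limma adjusted p = 0.0331) and SAMD9L passed. IFI6 read 7.60, 8.40, 6.22 and 7.84 in the chip, against 5.81, 5.81, 6.17 and 5.81 on Transwell, so that chip replicate 3 lay barely above the highest Transwell array. The test of the difference was no longer passed by IFI6, BUB1 and SAMD9L in 6, 6 and 5 of the 8 fits that left out 1 array, with values of 1.53 to 1.80, 0.70 to 0.86 and 1.12 to 1.21.

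The tension and early response genes ANKRD1 (difference between media 1.68 ± 0.35, limma adjusted p = 0.00836), SNAI1 (1.35 ± 0.19, limma adjusted p = 0.000116), AMOTL2 (1.14), TAGLN (1.13) and FOS (1.11) were further apart between the systems in ZnO-control medium, as was CYP1A1 (1.36). In each of these 6 genes the means in the chip differed little between media, by -0.04 to 0.29, whereas the Transwell means in ZnO-control medium less those in TiO2-control medium were -1.55 to -0.86. VGLL1, a TEAD cofactor, was at 2.44 ± 0.21 in ZnO-control and 0.57 ± 0.21 in TiO2-control medium (difference 1.88 ± 0.29, limma adjusted p = 0.000495). The non-coding genes LOC154761, MIR210HG, WEE2-AS1 and LINC01816 completed the 8 largest in this direction, with differences between media of 1.66 to 2.24. The call of WEE2-AS1 was lost in each of the 8 fits that left out 1 array and with the mean of its probe sets, where the value was 0.83 against 1.71. Whether the probe set of WEE2-AS1 reads 1 strand is not given in the sources used here, so that signal of an overlapping transcript cannot be told apart from it.

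Part of the chaperones and metallothioneins had a lower difference in ZnO-control medium. Of 19 heat shock genes 9 had a lower chip-minus-Transwell difference in ZnO-control medium and 0 a higher one: 7 rose and 5 fell in ZnO-control medium, and 13 rose and 0 fell in TiO2-control medium. HSPH1 was at -0.77 ± 0.15 in ZnO-control and 0.68 ± 0.15 in TiO2-control medium (difference -1.45 ± 0.21, limma adjusted p = 0.000254). HSPA1L followed with -1.97 ± 0.32 and DNAJA1 with -1.31 ± 0.25. Of 21 endoplasmic reticulum chaperones 6 had a lower difference, HSPA5 among them (-0.78 ± 0.14, limma adjusted p = 0.00288), and 1 a higher one, CREB3L2, a membrane-bound transcription factor on that list (0.68), whose call was lost under 9 alternatives. MT1X read 11.41, 11.05, 11.31 and 11.90 in the chip, against 11.08, 10.97, 10.99 and 10.69 on Transwell, and these groups overlapped. Its call was lost in 4 of the 8 fits that left out 1 array. Its difference was 0.48 ± 0.17 in ZnO-control and 2.65 ± 0.17 in TiO2-control medium (difference -2.17 ± 0.24, limma adjusted p = 1.96e-05), and MT1G had -2.80 ± 0.60. Of 10 metallothioneins 3 had a lower difference between media and 0 a higher one. The Transwell means of MT1X and MT1G were higher in ZnO-control than in TiO2-control medium by 2.27 and 2.59, whereas those in the chip differed by 0.10 and -0.21.

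Several genes of absorptive cells had a lower difference in ZnO-control medium. TMED6, a cargo receptor of the secretory pathway, read 3.41, 3.75, 3.54 and 3.45 in the chip, against 6.38, 6.19, 6.25 and 5.66 on Transwell, a difference of -2.58 ± 0.21, and was at 0.01 ± 0.21 in TiO2-control medium (difference -2.59 ± 0.30, limma adjusted p = 2.01e-05). Its Transwell mean was higher in ZnO-control than in TiO2-control medium by 1.89, and its chip mean was lower, at -0.70. TMIGD1, a junction protein of the brush border, was at -1.76 ± 0.25 and 0.39 ± 0.25 (difference -2.15 ± 0.35, limma adjusted p = 0.000893). APOA4 was at -1.85 ± 0.42 and 0.52 ± 0.42 (difference -2.37 ± 0.60, limma adjusted p = 0.0287), a call that was lost in 4 of the 8 fits without 1 array, with values of -2.39 to -1.91. FABP2 fell in both, by 5.0 ± 0.24 in ZnO-control and by 3.49 ± 0.24 in TiO2-control medium (difference -1.51 ± 0.34, limma adjusted p = 0.0151). The small nucleolar RNA genes SNORA38B and SCARNA3, with differences of -2.68 and -1.93, completed the 8 largest in this direction. The call of SNORA38B was lost under 8 alternatives. Of the 13 sugar genes 0 passed the test of the difference, against 1.05% of all genes passing it downwards.

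**Figure D5:**
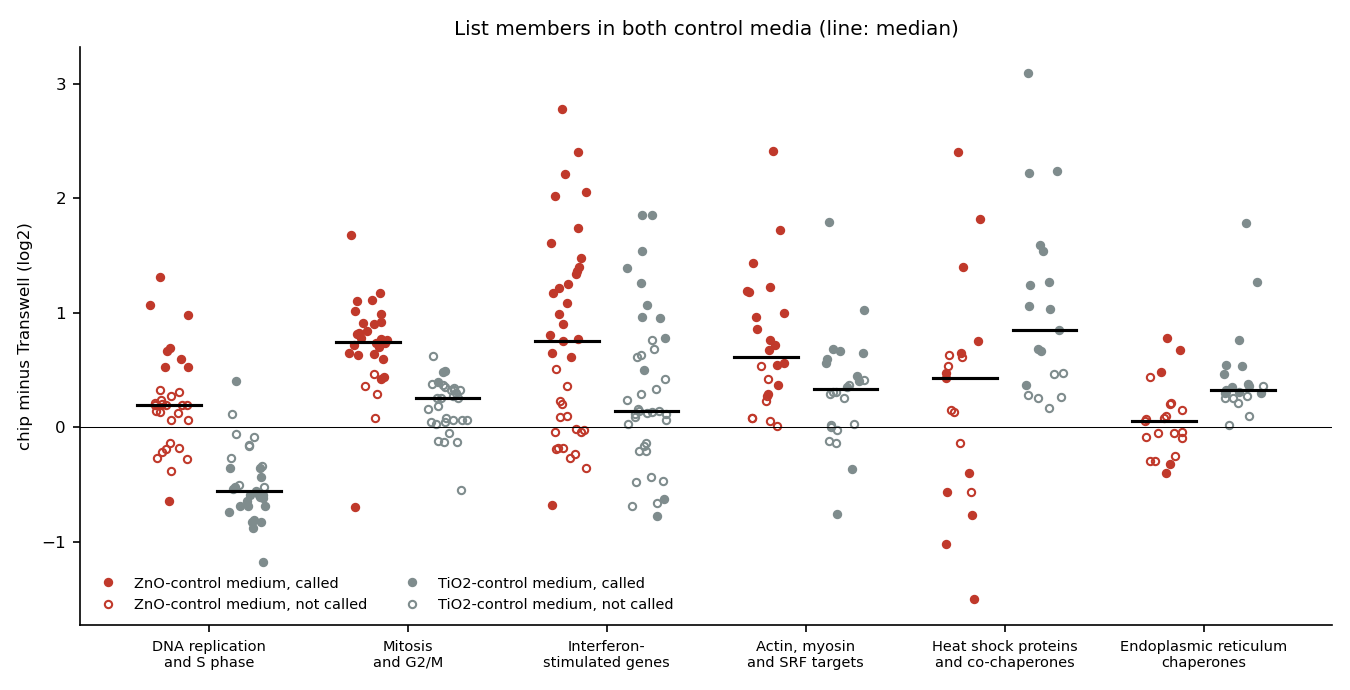
Chip-minus-Transwell difference (log2) of the measured members of 6 gene lists in ZnO-control medium (red, left) and TiO2-control medium (grey, right). Filled points were called, open points were not, and the line is the median; the S phase list has medians of 0.19 and -0.56, the heat shock list of 0.43 and 0.85.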

How the data were processed

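RNA of 31 Caco-2 samples was measured on 31 one-colour expression arrays, of which the 8 arrays of both culture systems in ZnO-control medium were compared and the other 23 entered the estimate of the spread. The authors deposited log2 expression values per probe set, and per the submitters' processing notes RMA was used; no version of it is stated. RMA corrects background, gives all arrays the same distribution and summarises probes, so the depth of a count table does not apply, and the number of arrays limits the precision. Of 53617 probe sets 23862 were annotated with 1 gene symbol, 1851 with several and 27904 with none. The gene identifiers of 22569 probe sets matched RefSeq. Where a gene had more than 1 probe set (630 genes), the brightest stood for it, which left 22389 genes.

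A linear model with a mean for each of the 8 groups was fitted to all 31 arrays with limma 3.58.1 in R 4.3.3 (empirical Bayes, 23 residual and 4.77 prior degrees of freedom), and p-values were adjusted by Benjamini and Hochberg over all genes, with calls below 0.05. The difference between media was a contrast of the same model. The fit was also run on simulated data, in which each gene had the same spread in all groups. Chip arrays varied more than Transwell arrays, so that run does not show how the calls behave under unequal spread. Genes named in the text were up to 12 largest rises and falls called without overlap, members of the gene lists, and up to 8 genes each way with the largest difference between media. The members and lists were chosen with earlier results of these data known. Alternatives changed the arrays in the fit, prior, weights, filter, scaling, probe set rule and replicates. Signal over background was not used.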

Additional observations from a re-analysis of the deposited data

Results flagged for a closer look

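In 24 of 460 groups of 4 arrays tested over the genes named in the text, 1 array stood apart from the other 3 by Dixon's criterion, which chance alone meets in about 1 of 20 groups. Chip replicate 3 was that array for 7 genes on the log2 scale: ANPEP (8.03), ETS1 (5.20), IFITM1 (6.25), MTTP (7.66), NR5A2 (7.09), SULT2A1 (5.57) and XPNPEP2 (6.44). Chip replicate 2 stood apart for ERAP1 (7.33) and ITGA2 (9.37), and chip replicate 4 for H2BC21 (8.85). On Transwell, replicate 1 stood apart for ANKS4B (9.10), IRF1 (3.81), MIR146A (1.99), RELB (3.80), ST6GALNAC1 (2.80) and XPNPEP2 (8.71). Replicate 2 did so for SAMD9L (3.29) and SLC5A1 (6.06), replicate 3 for CCN1 (5.08), IFI6 (6.17) and IFITM1 (4.52) and replicate 4 for PTTG1 (4.15), RRS1 (6.98) and SLC2A1 (11.23).

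For 47 of the 230 genes named, the chip-minus-Transwell difference in ZnO-control medium less that in TiO2-control medium passed the limma test of that difference, and the values follow on the log2 scale. Among genes of tension, adhesion and signalling it was positive for ANKRD1 (1.68), SNAI1 (1.35), AMOTL2 (1.14), TAGLN (1.13), VCL (0.90), ZYX (0.77), FOS (1.11), EGR1 (0.93) and VGLL1 (1.88). For the cell cycle it was positive in TK1 (1.04), CDT1 (1.15), RFC4 (1.36), PLK1 (0.89), BUB1 (0.80) and E2F7 (1.79). Among interferon, antigen and xenobiotic genes it was positive for IFI6 (1.82), SAMD9L (1.23), TAP1 (0.83) and CYP1A1 (1.36). Others with a positive value were ATP6V1B1 (1.09), CREB3L2 (0.68), LOC154761 (2.24), MIR210HG (1.78), WEE2-AS1 (1.71) and LINC01816 (1.66). Chaperones and metal binding proteins had negative values, namely HSPA1L (-1.97), HSPH1 (-1.45), DNAJA1 (-1.31), STIP1 (-0.94), HSPB1 (-0.82), HSPA5 (-0.78), MT1G (-2.80) and MT1X (-2.17). Negative values were also found for the absorptive and metabolic genes FABP1 (-0.81), FABP2 (-1.51), APOA4 (-2.37), SLC15A1 (-1.12), SLC26A3 (-1.48), SULT2A1 (-1.70), ADH4 (-1.51), ABCB1 (-0.81), FGA (-0.84), TMED6 (-2.59) and TMIGD1 (-2.15). The rest were DUSP16 (-0.95), SNORA38B (-2.68) and SCARNA3 (-1.93). Of the 47 genes 17 lost this call under 1 or more alternatives, and each of the 17 lost it in 2 or more of the 8 fits without 1 array. Under the settings that lost the call the values were, by gene, ABCB1 (-0.81 to -0.70), ADH4 (-1.51 to -1.28), APOA4 (-2.39 to -1.91), ATP6V1B1 (0.94 to 1.11), BUB1 (0.70 to 0.86), CREB3L2 (0.61 to 0.71), EGR1 (0.87), FABP1 (-0.84 to -0.76), FGA (-0.86 to -0.76), HSPB1 (-0.84 to -0.60), IFI6 (1.53 to 1.80), SAMD9L (1.12 to 1.21), SLC15A1 (-1.14 to -0.97), SLC26A3 (-1.50 to -1.35), SNORA38B (-2.75 to -2.29), TAP1 (0.71 to 0.85) and WEE2-AS1 (0.83 to 1.78). Medium and experimental set cannot be told apart in these values.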

How the results depend on the processing

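Genes called higher and lower in the chip stayed within 1.5 times of 2754 and 3348 under 9 other settings, at 2545 to 3383 and 2859 to 3577, and at 2445 to 2720 and 3022 to 3167 with 1 array left out. A 2-fold minimum left 737 and 873. Shifting all arrays to a common median of the brighter genes gave 3383 higher and 2859 lower. The difference between media was less stable. Its counts of 378 higher and 235 lower were 616 and 438 when only brighter genes were tested, 524 and 363 with array weights, 119 and 78 with a 2-fold minimum, and 189 to 354 and 120 to 251 with 1 array left out; the cause was not tested. Same-numbered chip and Transwell arrays had deviations correlated at -0.018 to 0.063, so the numbers were not taken as pairs. With the replicate number as a block the counts were 2712 and 3323, and 344 and 219 between media. Of the 202 named genes called in the main comparison 8 lost their call under an alternative, and of 47 between media 17. EPCAM, at 0.00, was -0.02 to 0.04 with 1 array left out. PTPRC, at -0.03, turned to 0.02 with array weights and 0.04 with a common median, and was -0.12 to 0.09 with 1 array left out. MX1, also at -0.03, turned to 0.04 with a common median and was -0.10 to 0.03 with 1 array left out. None of these 3 genes was called. Of the genes called at least 2-fold lower 92 were below the array medians in the chip, and of those higher 78 on Transwell, so these differences are at best lower bounds.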

Other observations

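Several families were grouped by the start of their symbols after their values had been seen, and their counts are descriptions with no test. Of 480 zinc finger genes with a ZNF symbol, mostly transcription factors, 176 were called lower in the chip than on Transwell (36.7%) and 19 higher (3.96%), with a median difference of -0.27 on the log2 scale, where over all genes 15% were lower, 12.3% higher and the median was -0.01. In TiO2-control medium, on other arrays, 139 of them were lower and 16 higher, where over all genes 13.5% were lower and 9.42% higher. Solute carriers, the membrane transporters of small molecules, were lower in ZnO-control medium for 84 of 327 genes (25.7%), with a median difference of -0.07. They were higher for 44 (13.5%), near the 12.3% over all genes.

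Of 157 C/D box small nucleolar RNA genes 38 were lower (24.2%) and 4 higher (2.55%) in ZnO-control medium. Over all genes 15% were lower and 12.3% higher. Many but not all of these RNAs guide methylation of ribosomal RNA. The 38 lower genes included 14 of 43 SNORD115 and SNORD116 copies. These copies are alike in sequence and lie in 1 imprinted cluster, so that they are not independent. In TiO2-control medium 21 of the 157 were lower and 7 higher, where over all genes 13.5% were lower and 9.42% higher. None of the 157 passed the test of the difference between media. Of 81 H/ACA box and Cajal body RNA genes 9 were lower (11.1%) and 5 higher (6.17%) in ZnO-control medium, shares below those over all genes. In TiO2-control medium 3 were lower and 18 higher, where over all genes 13.5% were lower and 9.42% higher. The test of the difference between media was passed by 3 of the 81 downwards and by 0 upwards. For 54 ribosomal protein genes the counts in ZnO-control medium were 3 lower (5.56%) and 1 higher (1.85%). Among 358 olfactory receptor genes, which this tissue is not known to use, 1 was called lower and 4 higher, 0.279% and 1.12%.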
